A study of Rattus norvegicus with 6 samples.

Results

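The Hedgehog ligands and the genes that receive and relay their signal were followed in injured rat sciatic nerve. The 8 genes were Shh, Dhh, Ptch1, Smo, Gli1, Gli2, Gli3 and Hhip, picked by symbol from a table of 23091 genes, and each symbol had 1 entry. All 8 passed the filter on low counts, which left 13999 genes for testing. They were chosen with results of these libraries already known, so fold changes and p-values between the groups are given below as a description and support nothing further.

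Polyadenylated RNA was sequenced from male wild-type Sprague-Dawley rats with a sciatic nerve defect. The defect had received the implant GDNF-Gel/HA-Mg, named for the neurotrophic factor GDNF, in the 3 libraries implant 1, implant 2 and implant 3. In the other 3, called NC 1 to NC 3, the wound was closed with no treatment. The groups follow the titles, the treatment label and the design text, while a protocol text shared by all samples names the implant for NC as well. The labels give neither the age of the rats nor the time after surgery. They do not say whether each library came from a separate animal, so each p-value reflects no more than the spread among the 6 libraries, which may be technical.

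Hedgehog ligands bind the receptor Patched, which otherwise holds the membrane protein Smoothened inactive. Once released, Smoothened acts through the primary cilium on the Gli transcription factors. Gli1, Ptch1 and Hhip are themselves switched on by the signal, so their transcripts are widely used as a readout of it. In peripheral nerve, Dhh is made by Schwann cells, and mice without it form a defective perineurium, the sheath around nerve fascicles. Shh is known as a ligand that Schwann cells switch on after nerve injury in rodents.

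Total counts ran from 16120518 to 18491379 in the implant libraries and from 15897850 to 17990057 in the NC libraries. Haemoglobin transcripts took 8.08% to 14.8% of counts in the implant libraries and 1.02% to 25.2% in NC, with the highest share in NC 3. Schwann lineage markers were present throughout, and all 8 of that list were above 0 in every library. Levels are in CPM, the count scaled to library size after TMM scaling between libraries. The summed level of the 8 markers was 715 to 2110 CPM in the implant libraries and 789 to 3815 CPM in NC. Sox10, the transcription factor that defines the lineage, stood at 179, 122 and 161 CPM in the implant libraries and at 154, 243 and 21.8 CPM in NC. NC 3 thus had the highest haemoglobin share and the lowest Sox10. The summed level of the markers was instead lowest in implant 2, at 715 CPM, with 789 CPM in NC 3. S100b, another of the markers, was higher in NC 3, at 571 CPM, than in any implant library. With each marker centred on its own mean log2 CPM, the list averaged lowest in NC 3, at -1.68, with -0.64 in implant 2. Fat cell markers summed to 10186 CPM in NC 3 and to between 1469 and 4027 CPM elsewhere.

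RefSeq promoter windows of build GRCr8, which reach from 250 bases before to 50 bases after an annotated start, were matched by symbol for 6 of the 8 genes. Those of Ptch1, Dhh and Hhip are printed 5′ to 3′ because these 3 genes varied widely between libraries and had an entry. The Ptch1 window lies at chr17:1555321-1555620 on the plus strand, and its capitals mark TGGGTGGTC, the reverse complement of the consensus Gli binding sequence GACCACCCA.
Ptch1: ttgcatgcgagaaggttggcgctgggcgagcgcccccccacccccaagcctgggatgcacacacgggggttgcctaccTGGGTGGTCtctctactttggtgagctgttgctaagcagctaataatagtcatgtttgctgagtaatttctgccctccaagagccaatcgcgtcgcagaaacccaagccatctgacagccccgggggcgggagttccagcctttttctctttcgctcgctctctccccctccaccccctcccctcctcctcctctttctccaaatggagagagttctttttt
The Dhh window lies at chr7:131935303-131935602 on the minus strand, and the Hhip window at chr19:44767788-44768087 on the plus strand. In both, capitals mark the 6-letter core CCACCC or its reverse complement GGGTGG.
Dhh: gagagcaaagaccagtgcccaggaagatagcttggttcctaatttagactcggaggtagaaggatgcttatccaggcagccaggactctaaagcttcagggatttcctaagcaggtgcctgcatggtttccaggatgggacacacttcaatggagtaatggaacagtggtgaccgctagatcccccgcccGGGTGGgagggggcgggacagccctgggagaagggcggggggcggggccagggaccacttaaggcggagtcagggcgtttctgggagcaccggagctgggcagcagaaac
Hhip: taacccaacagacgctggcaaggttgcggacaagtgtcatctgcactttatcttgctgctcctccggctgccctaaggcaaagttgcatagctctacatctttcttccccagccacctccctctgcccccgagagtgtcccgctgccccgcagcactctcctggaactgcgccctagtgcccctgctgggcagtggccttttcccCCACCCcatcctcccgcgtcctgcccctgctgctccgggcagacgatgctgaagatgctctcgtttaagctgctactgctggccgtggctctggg

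Both strands of each window were searched. The 9 letters GACCACCCA were in 1 of the 6 windows, that of Ptch1, where they began 172 bases before the annotated start. Of all 33469 windows of the same length, 0.385% held them. The core CCACCC, which lies inside the longer sequence, was in all 6 windows and in 29.4% of all windows. Ptch1 had 3 matches to the core, of which 1 is part of the longer match. A match describes the letters of these windows and says nothing of binding in these nerves.

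The ligands differed far more between libraries of 1 group than between the groups. Shh (ENSRNOG00000006120) measured 26.2, 0.380 and 3.66 CPM across implant 1 to 3, against 0.623, 22.5 and 2.39 CPM across NC 1 to 3. These levels rest on 448, 7 and 62 counts in the implant libraries and on 12, 390 and 33 counts in NC. Implant 1 and NC 2 were thus high, implant 2 and NC 1 were nearly without the transcript, and the groups overlapped over almost the whole range.

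The highest Shh level was 68.9 times the lowest. The count of 7 in implant 2 has an exact 95% Poisson interval of 2.81 to 14.4, and the count of 12 in NC 1 one of 6.20 to 21.0, both for counting error only. Within the implant group alone the range was 68.9-fold, and within NC it was 36.2-fold. In the order of levels, implant 1 and NC 2 had overlapping counting intervals, as did implant 3 and NC 3, and NC 1 and implant 2.

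Dhh (ENSRNOG00000053675) measured 74.8, 14.8 and 68.1 CPM across implant 1 to 3, against 15.2, 111 and 9.83 CPM across NC 1 to 3. The range was 11.3-fold. NC 2 was the highest, implant 1 and implant 3 followed with overlapping counting intervals, and the lowest of these 3 was 4.48 times the next library. Implant 2 and NC 1 could not be told apart by counting error, and NC 3 was lowest.

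The balance of the ligands also varied between libraries. The count of Shh per count of Dhh was 0.351, 0.0256 and 0.0537 in implant 1, implant 2 and implant 3, against 0.0410, 0.203 and 0.243 in NC 1, NC 2 and NC 3. This ratio is read only between libraries, where gene length cancels, and it spanned 13.7-fold. Implant 1 had the most Shh per Dhh, and NC 3, low in both ligands, had a ratio close to that of NC 2.

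Ihh, the third mammalian Hedgehog ligand, had 0, 2 and 5 counts in the implant libraries and 0 in each NC library. A count of 0 was taken to allow up to 3 counts. That is 0.176 CPM in implant 1 and 0.156, 0.173 and 0.217 CPM in NC 1, NC 2 and NC 3. The exact 95% Poisson interval, as used for Shh, reaches higher for a count of 0, to 3.69 counts. Ihh was too low to be tested.

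**Figure D1:**
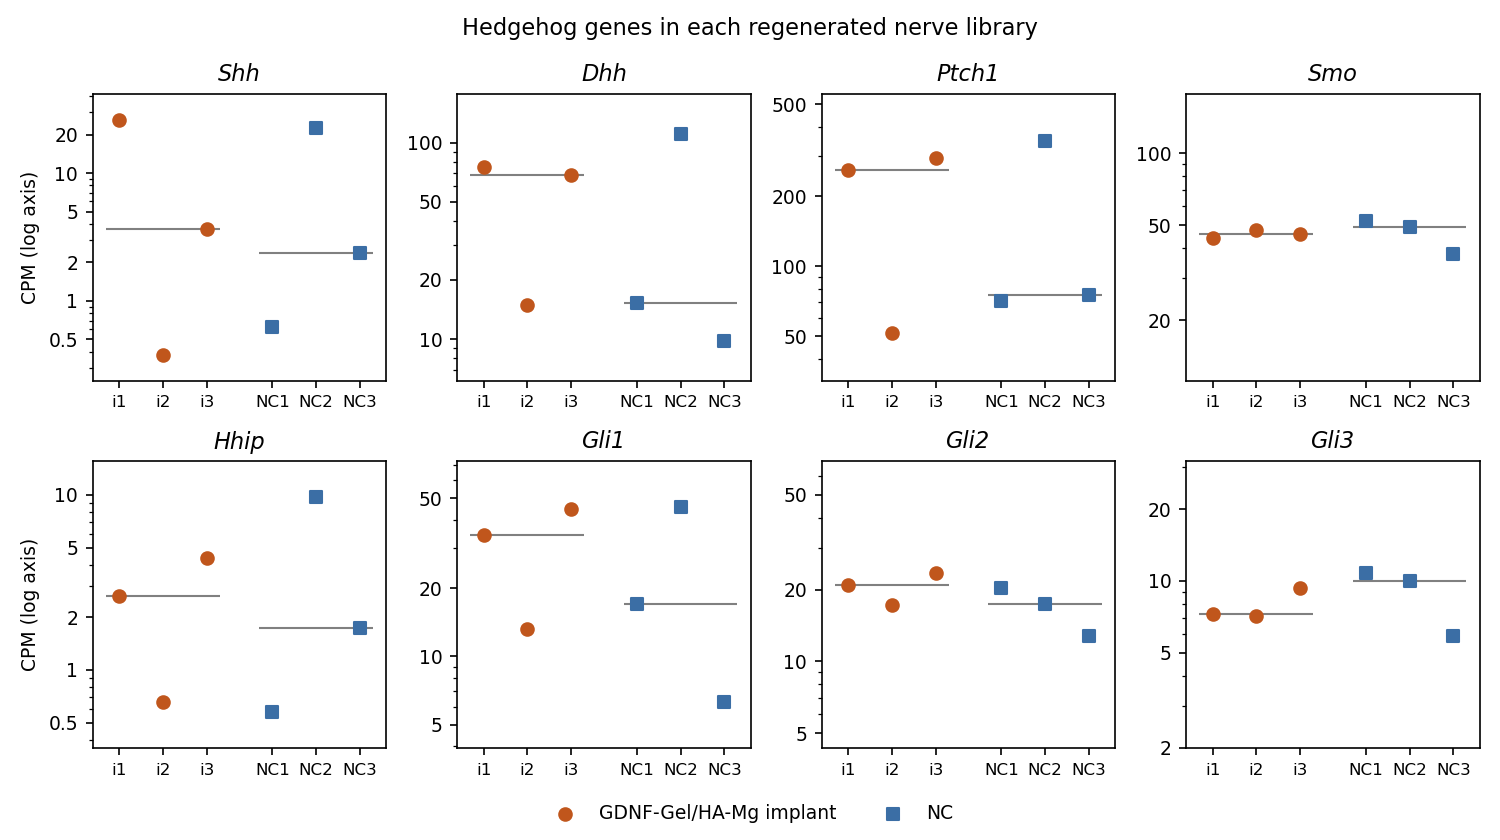
Level of each of the 8 Hedgehog genes in every library, in CPM on a log axis. Circles are implant 1 to implant 3 (i1 to i3), squares are NC 1 to NC 3, and the grey line is the median of each group of 3. Shh runs from 0.380 to 26.2 CPM and Smo only from 38.0 to 52.2 CPM.

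The receptor that is also a target gene had the same 3 highest libraries as Dhh. Ptch1 (ENSRNOG00000019354), which encodes Patched, measured 261, 51.6 and 294 CPM across implant 1 to 3, against 71.1, 347 and 75.5 CPM across NC 1 to 3. NC 2, implant 3 and implant 1 were the 3 highest, and the lowest of them was 3.46 times the next library. The range over the 6 libraries was 6.73-fold.

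Hhip (ENSRNOG00000018268), a decoy that binds the ligands at the cell surface, stood at 2.63, 0.652 and 4.36 CPM in the implant libraries and at 0.571, 9.77 and 1.74 CPM in NC. The range was 17.1-fold. Per count of Ptch1, Hhip was 0.0101, 0.0126 and 0.0149 in the implant libraries and 0.00803, 0.0282 and 0.0230 in NC, so NC 2 and NC 3 were highest. NC 2 had the highest Hhip with 169 counts, and NC 1 and implant 2 the lowest with 11 and 12 counts.

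Smo (ENSRNOG00000008332), the signal-passing membrane protein, was nearly even. It stood at 44.3, 47.5 and 46.0 CPM in the implant libraries and at 52.2, 49.3 and 38.0 CPM in NC, a range of 1.37-fold. Each library had a counting interval that overlapped that of its neighbour in the order. The NC values enclosed the implant values.

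Among the Gli factors, only Gli1 varied by more than 2-fold. Gli1 (ENSRNOG00000025120), an activator that is itself a target gene, measured 34.2, 13.1 and 44.6 CPM across implant 1 to 3, against 17.1, 45.6 and 6.29 CPM across NC 1 to 3. The 3 highest were again NC 2, implant 3 and implant 1, and the range was 7.25-fold. Counts of Gli1 were estimated values that were not whole in all 6 libraries, and the RefSeq annotation places Arhgap9 over the same stretch of genome. Arhgap9 stood at 19.8, 18.6 and 19.3 CPM in the implant libraries and at 13.8, 10.8 and 21.8 CPM in NC, and NC 2, the highest in Gli1, was the lowest in Arhgap9. In the same annotation Dhh overlaps Tuba1c, Shh overlaps a long noncoding RNA and Gli3 a pseudogene. Tuba1c measured 137, 87.8 and 108 CPM in the implant libraries and 69.6, 178 and 107 CPM in NC, with the same 3 highest libraries as Dhh and a range of 2.56-fold. Without strand information from the kit, reads from a stretch shared by overlapping genes cannot be told apart. How large the shared stretches are, and how many counts they hold, was not tested.

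Gli2 (ENSRNOG00000007261), the main activator when the signal first arrives, stood at 21.0, 17.3 and 23.5 CPM in the implant libraries and at 20.2, 17.3 and 12.7 CPM in NC. Gli3 (ENSRNOG00000014395), which acts mostly as a repressor when the signal is absent, stood at 7.26, 7.12 and 9.37 CPM in the implant libraries and at 10.8, 9.999 and 5.86 CPM in NC. Their ranges were 1.85-fold and 1.84-fold, and in both genes NC 3 was lowest.

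**Figure D2:**
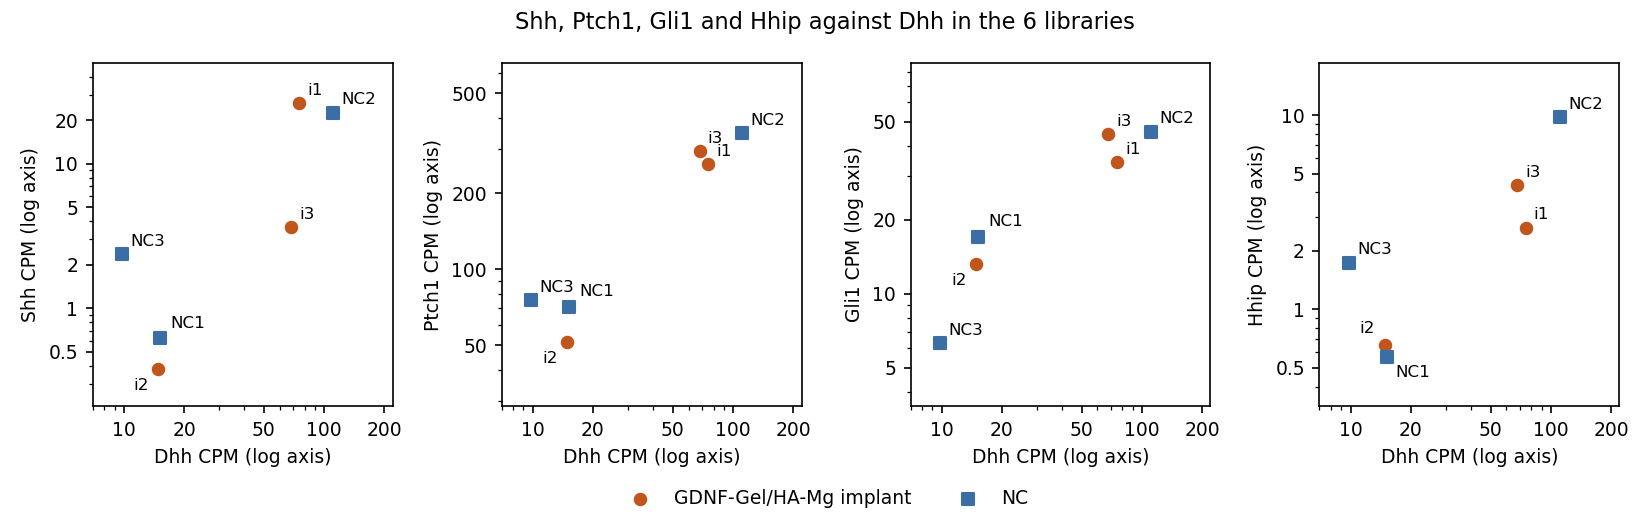
Shh, Ptch1, Gli1 and Hhip against Dhh in the 6 libraries, in CPM on log axes, with circles for implant 1 to implant 3 (i1 to i3) and squares for NC. NC2, i1 and i3 lie to the right in each panel, with Dhh at 68.1 CPM or more, and the other 3 libraries lie at Dhh of 15.2 CPM or less. In the Shh panel i3 lies at mid height near the level of NC3, and in the Hhip panel i1 does.

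The 8 genes thus fell into a variable and an even set. In Shh, Dhh, Ptch1, Gli1 and Hhip, 5 of the 8, the 3 highest libraries were NC 2, implant 1 and implant 3. In Shh and Hhip the third place, held by implant 3 and implant 1, overlapped in counting interval with NC 3, the next library. Of all tested genes, 16.2% had these 3 highest. Measured by the SD of log2 CPM between libraries of a group, pooled over both groups, Shh had 2.69, Hhip 1.66, Dhh 1.605, Ptch1 1.35 and Gli1 1.20. Smo had 0.18, Gli2 0.29 and Gli3 0.37, beside a median of 0.29 over all tested genes. In the ranking of the 13999 genes by this SD, Shh lay at the 99.4th percentile, Hhip at the 97.0th, Dhh at the 96.8th, Ptch1 at the 95.2nd and Gli1 at the 93.6th. Smo lay at the 27.0th, Gli2 at the 49.9th and Gli3 at the 61.4th.

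**Figure D3:**
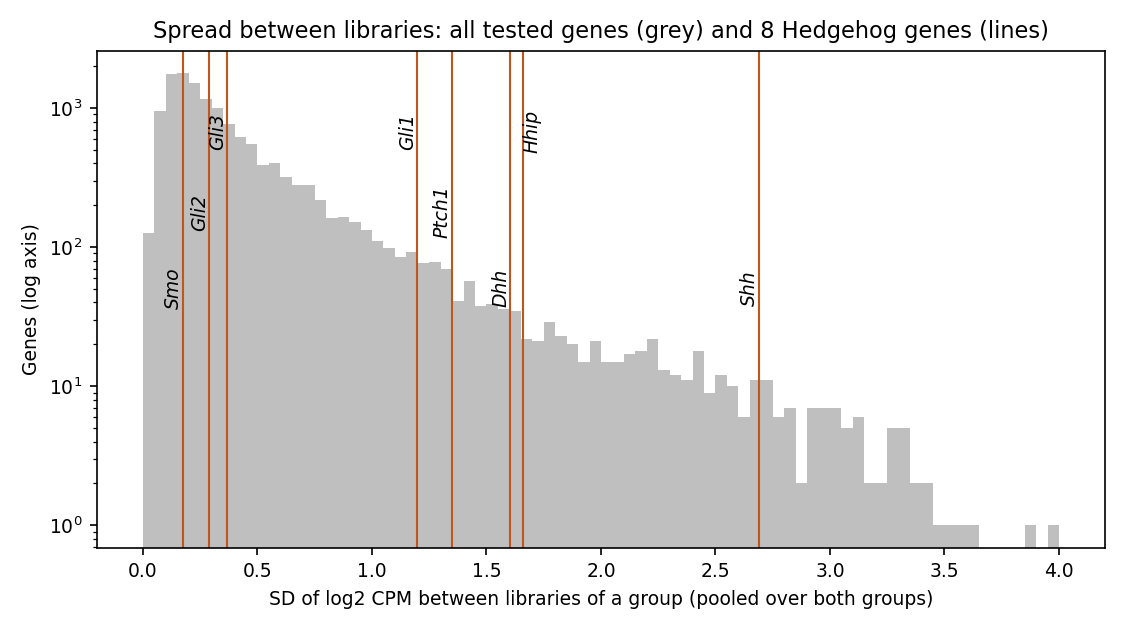
Histogram of the SD of log2 CPM between libraries of a group (x axis, pooled over both groups) for all 13999 tested genes, with the number of genes on a log axis. Vertical lines mark the 8 Hedgehog genes. Shh lies far out at 2.69, while Smo, at 0.18, lies in the bulk of the genes.

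Between the groups, none of the 8 genes passed the test. With edgeR's quasi-likelihood test adjusted by Benjamini-Hochberg over all genes, 0 of 13999 genes were called, or 0%, and 241 genes, or 1.72%, had an unadjusted p under 0.05. None of the 8 was among the 241. DESeq2 called 11 genes, or 0.0786%, and none of them was one of the 8. It gave Dhh no p-value, so Dhh was not tested by DESeq2. Unadjusted edgeR p-values of the 8 genes ran from 0.219 for Gli2 to 0.9002 for Smo. In no member were the 3 libraries of a group all above those of the other, which was the case in 5.69% of tested genes.

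For Shh the log2 fold change was 0.24 ± 1.63 (SE, n = 3 each), with a 95% interval of -3.74 to 4.22. Shh averaged 10.1 ± 14.1 CPM with the implant and 8.52 ± 12.2 CPM in NC (SD, n = 3 each), so the SD exceeded the mean in both groups. For Dhh it was 0.21 ± 1.04, with 52.6 ± 32.8 CPM in the implant libraries and 45.4 ± 57.0 CPM in NC. Differences in the ligands of a few-fold in either direction were not detectable with this spread.

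For the target genes the log2 fold changes were 0.30 ± 0.86 for Ptch1, 0.41 ± 0.76 for Gli1 and -0.66 ± 1.12 for Hhip. Ptch1 averaged 202 ± 131 CPM with the implant and 165 ± 158 CPM in NC. Gli1 averaged 30.7 ± 16.04 CPM with the implant and 23.0 ± 20.3 CPM in NC. Hhip averaged 2.55 ± 1.86 CPM with the implant and 4.02 ± 5.01 CPM in NC. These differences were smaller than the SD within either group.

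The even genes allowed tighter limits. Smo averaged 45.9 ± 1.62 CPM with the implant and 46.5 ± 7.4995 CPM in NC, and its log2 fold change of -0.02 ± 0.15 had a 95% interval of -0.38 to 0.34. Gli2 averaged 20.6 ± 3.14 CPM with the implant and 16.8 ± 3.79 CPM in NC, with a log2 fold change of 0.29 and an interval of -0.23 to 0.82. Gli3 averaged 7.92 ± 1.26 CPM with the implant and 8.88 ± 2.65 CPM in NC, with a log2 fold change of -0.17 and an interval of -0.85 to 0.51. All 3 intervals exclude a 2-fold change in either direction. The median log2 fold change of the 8 genes was 0.23, beside -0.01 over all tested genes, and 5 of the 8 were positive.

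Single libraries set the direction of the variable genes. Without NC 2 the log2 fold change of Shh was 2.76 and that of Dhh 2.06, with edgeR adjusted p of 0.963 for each. The unadjusted edgeR p was then under 0.05 for 1 of the 8 genes and for 574 of 14239 tested genes. In the same fit Ptch1 was at 1.46, Gli1 at 1.38 and Hhip at 1.16. Without NC 3 Shh was at -0.19 and Dhh at -0.26, and without implant 1 they were at -2.05 and -0.11. The median of the 8 genes ran from -0.17 without NC 3 to 1.27 without NC 2.

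**Figure D4:**
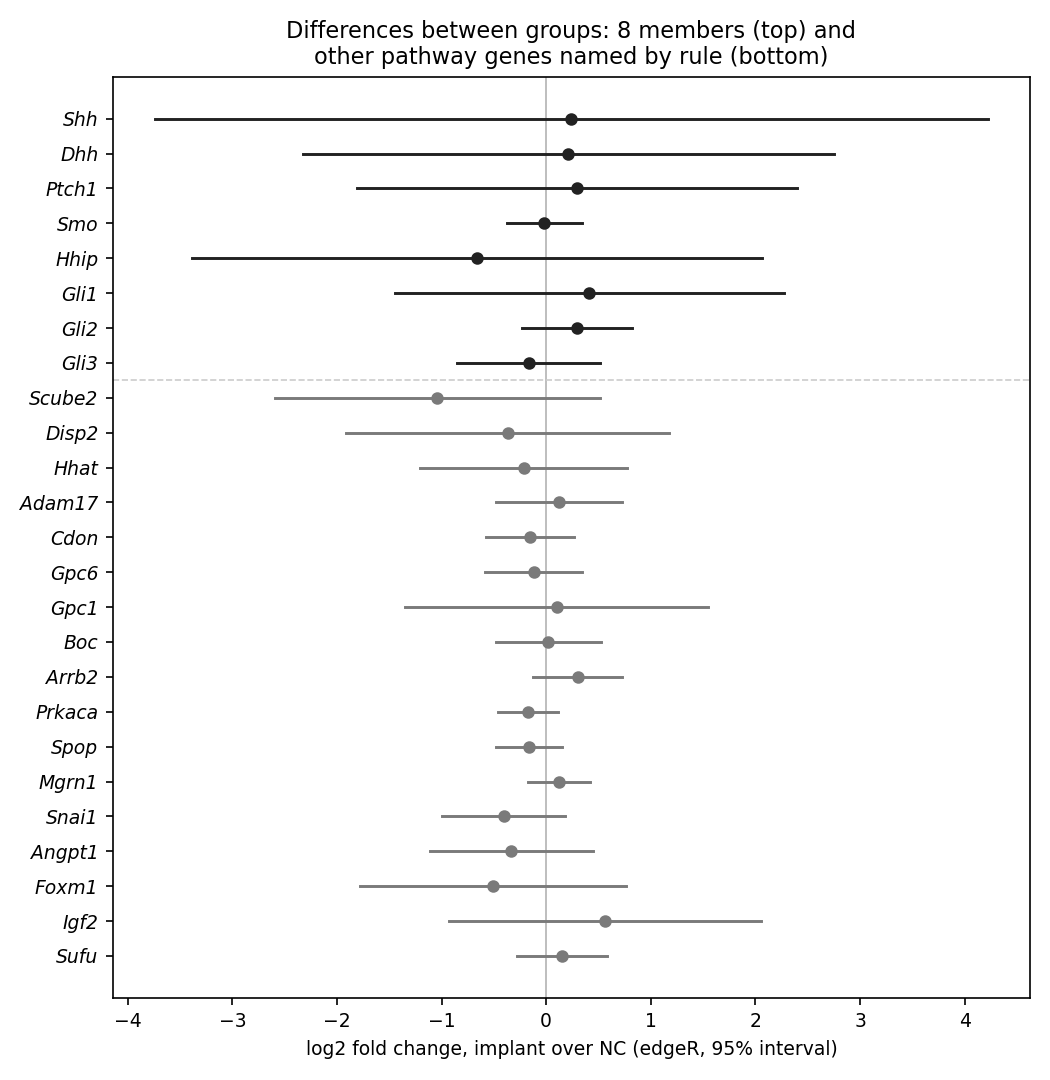
Log2 fold change, implant over NC, from edgeR (points) with its 95% interval (lines) for the 8 Hedgehog genes above the dashed line and for 17 other pathway genes below it. Every interval crosses 0, and that of Shh reaches from -3.74 to 4.22.

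Of the other pathway genes, 62 of 64 listed symbols were in the table and 56 passed the filter, and edgeR called none of the 56. Among genes of ligand release, Disp1, which frees lipid-bearing ligand from the producing cell, stood at 38.9, 10.7 and 48.9 CPM in the implant libraries and at 11.6, 75.9 and 11.9 CPM in NC. It thus had the same 3 highest libraries as Dhh, and its range was 7.13-fold. Scube1 and Scube3 belong to a family of secreted proteins that carry released ligand. Scube1 stood at 139, 38.8 and 51.1 CPM in the implant libraries and at 67.8, 155 and 16.1 CPM in NC.

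Scube3 was highest in other libraries. It measured 19.0, 40.3 and 2.00 CPM across implant 1 to 3, against 33.7, 3.29 and 4.77 CPM across NC 1 to 3, so implant 2 and NC 1, low in Shh, were highest. Scube2 averaged 2.81 ± 1.598 CPM with the implant and 5.8002 ± 3.53 CPM in NC, with a log2 fold change of -1.04 ± 0.64. Disp2 averaged 1.797 CPM with the implant and 2.34 CPM in NC. Hhat, which attaches a fatty acid to the ligands, averaged 1.97 ± 0.351 CPM with the implant and 2.29 ± 0.919 CPM in NC. Adam17, a membrane protease reported to act in Shh shedding, averaged 129 ± 26.1 CPM with the implant and 118 ± 32.1 CPM in NC. Of the 8 tested genes of ligand release, 2 were positive on the log2 scale, and the median log2 fold change was -0.13. This median had no stable direction, at 0.06 with limma-voom, and ran from -0.45 without NC 3 to 0.20 without NC 2.

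The co-receptors Boc and Cdon were even. Boc, which binds ligand beside Patched, averaged 99.5 ± 11.6 CPM with the implant and 98.1 ± 24.7 CPM in NC, and the related Cdon averaged 34.2 ± 5.47 CPM with the implant and 38.0 ± 5.42 CPM in NC. Over the 6 libraries they varied by 1.55-fold and 1.51-fold. The cell surface proteoglycan genes Gpc1 and Gpc6 averaged 324 ± 118 CPM and 19.7 ± 3.98 CPM with the implant, against 302 ± 235 CPM and 21.4 ± 2.61 CPM in NC. Gas1 was not analysed here. The list had 3 of 6 tested genes positive and a median of 0.00.

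The cilium and relay genes were the most even of the 4 other pathway lists, with a median SD within groups of 0.20 on the log2 scale over 24 genes. Sufu, which holds Gli proteins back in the cytoplasm, averaged 26.5 ± 3.59 CPM with the implant and 23.9 ± 4.19 CPM in NC. The 4 of the list with the smallest unadjusted p were Arrb2, Prkaca, Spop and Mgrn1, at log2 fold changes of 0.30 ± 0.17, -0.18 ± 0.12, -0.16 ± 0.13 and 0.13 ± 0.12. Prkaca, the catalytic subunit of protein kinase A, which restrains Gli factors, stood at 28.3, 30.8 and 32.2 CPM in the implant libraries and at 33.1, 32.3 and 37.8 CPM in NC. Prkaca and Csnk1d were the 2 of 24 genes whose groups did not overlap, beside 5.69% of all tested genes, and neither was called.

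Reported Gli target genes from other tissues were set beside Ptch1 and Gli1 by their 3 highest libraries. Of 19 tested, 4 had the same 3 highest libraries, among them Ccnd1, Mycn and Cdk6. That is near the share of 16.2% among all tested genes, so this count does not set the list apart. The list had 7 positive and 12 negative log2 fold changes and a median of -0.10. Its 4 genes with the smallest unadjusted p were Snai1, Angpt1, Foxm1 and Igf2, with log2 fold changes of -0.41 ± 0.24, -0.33 ± 0.32, -0.51 ± 0.52 and 0.56 ± 0.61. Igf2, an insulin-like growth factor, was highest in implant 2 at 145 CPM and lowest in NC 2 at 22.7 CPM.

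**Figure D5:**
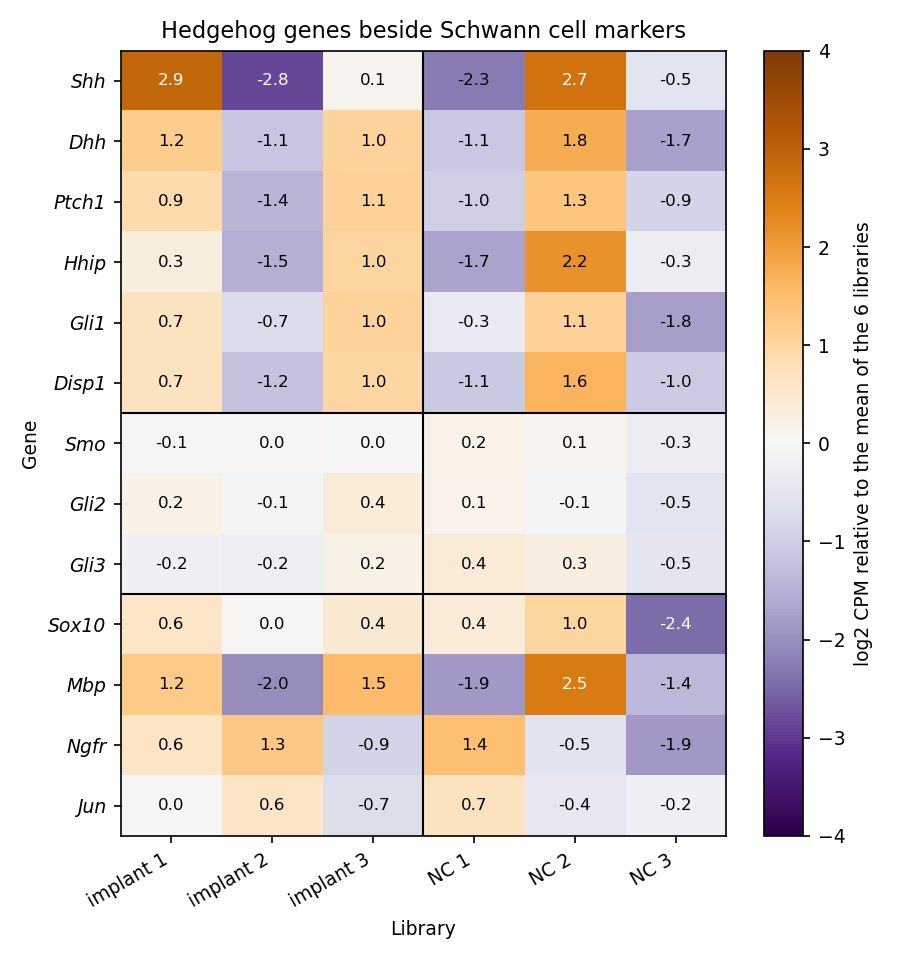
Log2 CPM relative to the mean of the 6 libraries for the variable Hedgehog genes with Disp1 (top), the even genes (middle) and Schwann cell markers (bottom), with implant libraries left of the vertical line and NC libraries right of it. Orange is above and purple below the mean. Mbp and Dhh have the same 3 highest libraries, while Ngfr and Jun are highest in NC 1 and implant 2.

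Markers of myelinating Schwann cells moved with the variable genes. All 10 of 10 had NC 2, implant 1 and implant 3 as their 3 highest libraries, and none was at 0. Their summed level was 15031, 878 and 18387 CPM in implant 1, implant 2 and implant 3, against 888, 36792 and 2586 CPM in NC 1, NC 2 and NC 3. Mbp, which encodes a structural protein of compact myelin, measured 2526, 266 and 3085 CPM in the implant libraries and 295, 6100 and 420 CPM in NC. In bulk tissue, fewer Schwann cells and less RNA per cell cannot be told apart. The part of the myelin level in the Hedgehog values was not tested.

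Markers of repair Schwann cells, the state taken up after injury, were highest elsewhere. None of the 8 tested had the 3 highest libraries of Dhh, and none of the 10 was at 0. Their summed level was 640, 1162 and 306 CPM in the implant libraries and 1300, 377 and 403 CPM in NC. Ngfr, the low-affinity neurotrophin receptor, stood at 240, 380 and 84.8 CPM in the implant libraries and at 434, 109 and 43.7 CPM in NC. Jun, the transcription factor that drives the repair state, stood at 233, 366 and 153 CPM in the implant libraries and at 388, 179 and 216 CPM in NC. Shh was lowest in NC 1 and implant 2, the libraries with the most Ngfr and Jun. Olig1, another gene of repair Schwann cells, was too low to be tested.

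Perineurial markers were also set beside the ligands. Of 7 tested, Slc2a1, Cldn1 and Itgb4 had the 3 highest libraries of Dhh, and Lypd2 was at 0 in all 6. The summed level of the list was 2043, 1188 and 3887 CPM in the implant libraries and 1297, 3248 and 1162 CPM in NC. Itgb4, at 826 to 3246 CPM in the implant libraries and 919 to 2602 CPM in NC, made up most of that sum. Averaged over the list as log2 CPM relative to the mean of the 6 libraries, it was at 0.48, 0.20 and -0.11 in the implant libraries and at 0.19, -0.10 and -0.67 in NC, an order unlike that of Dhh. Moxd1, another marker of the list, stood at 5.79, 13.6 and 0.472 CPM in the implant libraries and at 16.1, 1.62 and 1.59 CPM in NC, highest where Dhh was low in NC 1 and implant 2. Cldn1, a tight junction protein of the perineurium, stood at 317, 105 and 394 CPM in the implant libraries and at 113, 377 and 90.3 CPM in NC. The part of perineurial cells in the values was not tested. Markers of keratinocytes, a skin cell type, summed to 2.06 to 3.37 CPM in the implant libraries and 1.45 to 3.06 CPM in NC, and Krt5 was at 0 in implant 1, implant 2 and NC 1.

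Relative to Sox10 the libraries sorted differently. Dhh counts per Sox10 count were 0.419, 0.122 and 0.422 in implant 1, implant 2 and implant 3, against 0.0990, 0.458 and 0.452 in NC 1, NC 2 and NC 3. Implant 2 and NC 1 remained low, but NC 3, the lowest in Dhh itself, was level with NC 2. Ptch1 per Sox10 was 1.46, 0.423 and 1.82 in the implant libraries and 0.463, 1.43 and 3.47 in NC, so NC 3 was highest. Gli1 per Sox10 was 0.192, 0.108 and 0.277 in the implant libraries and 0.111, 0.188 and 0.289 in NC, a range of 2.68-fold compared with 7.25-fold for Gli1 in CPM. Per Sox10 the range of Dhh was 4.62-fold compared with 11.3-fold in CPM. That of Ptch1 was wider, at 8.21-fold compared with 6.73-fold, and that of Shh was 47.1-fold compared with 68.9-fold. These ratios were chosen after the values were seen. In the lists for endoneurial and epineurial fibroblasts, endothelium, pericytes, skeletal muscle, fat, macrophages, neutrophils and red cells, only Etv1 and Cd68 had the same 3 highest libraries as Dhh. In the cartilage and bone list, 2 of 4 tested genes had them, Col2a1 and Ibsp, and the summed level was 20.4 to 47.8 CPM in the implant libraries and 20.7 to 45.3 CPM in NC.

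Likeness of pattern was measured as the root-mean-square difference of log2 CPM, each gene centred on its own mean over the 6 libraries. Among the 8 genes, the closest pair of variable genes was Dhh and Ptch1, at 0.43 log2 units, followed by Dhh and Gli1 at 0.50. Shh was not close to any other member by this distance, which also depends on the size of each gene's swings. Its nearest was Hhip at 1.28, and Shh and Dhh differed by 1.32. The own root-mean-square of Shh was 2.196, against 1.36 for Dhh and for Hhip. How far the distances of Shh reflect an unlike pattern rather than larger swings was not tested. Smo and Gli3, both even, differed by 0.20. That is more than the own root-mean-square of Smo, 0.14, so the small distance does not show a shared pattern.

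Among 11269 or 11270 other genes that averaged 2 or more in log2 CPM, those nearest to Dhh were Sh3tc2, Plekhb1, Ctns, Prrg4 and Adgrb1, at 0.19 to 0.26 log2 units. Sh3tc2, a Schwann cell gene of inherited neuropathy, stood at 45.4, 8.15 and 48.3 CPM in the implant libraries and at 12.6, 80.9 and 6.22 CPM in NC. Nearest to Ptch1 were Scamp5, Usp6nl, Disp1, Efr3b and Fut8, at 0.20 to 0.22. Nearest to Gli1 were Itpr3, Tenm2, Sdk2, Plxnb1 and Mgat3, at 0.14 to 0.21.

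By the same distance, Shh lay further from its nearest genes than the other members did from theirs. The own root-mean-square of Shh, 2.196, was also the largest of the 8. The genes nearest to Shh were Nefl, Adcy1, Col23a1, Egfl8 and Prss12, at 0.76 to 0.86. Nefl, the light chain of neurofilaments, stood at 55.3, 1.03 and 17.2 CPM in the implant libraries and at 1.298, 26.8 and 2.02 CPM in NC. The 6 libraries had the same order in Nefl as in Shh. The nearest to Hhip were Slc36a2, Rhobtb3, Sema5a, Megf10 and Kcna5, at 0.26 to 0.34. For the even genes Smo, Gli2 and Gli3, the nearest were Ints10, Ncoa3 and Cers4, at 0.03, 0.06 and 0.08. The own root-mean-square of Smo, Gli2 and Gli3 was 0.14, 0.28 and 0.31, so small distances follow in part from small swings.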

How the data were processed

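The authors deposited 1 table of expected counts (estimated counts) per gene. How they were estimated is not stated beyond the tool names below, column totals differ between libraries, and the values were rounded here to whole numbers. Per the submitters' processing notes, the tools were StringTie 1.3.1, HISAT2, Bowtie2 2.2.8 and DESeq2. What each was used for, and which build and annotation, was not stated there. Per the labels' protocols, mRNA was selected with oligo(dT) beads and made into NEBNext Ultra libraries, which do not mark strand. Each column was assigned by its name. The treated columns lack GDNF in their name and were assigned to the only group with that material.

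Genes were filtered with filterByExpr, scaled by TMM and tested with edgeR 4.0.16 (quasi-likelihood, two-sided, group as the only term) in R 4.3.3, with a call at a Benjamini-Hochberg adjusted p under 0.05. CPM uses TMM-scaled library sizes, and log2 CPM a prior count of 2. The SE is the log2 fold change over the root of F, so intervals are approximate. Poisson intervals and floors (3 counts) cover counting error only. The fit was tested on simulated data. No pair of libraries agreed within sampling noise.

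The 8 members and all lists were chosen with earlier results of these data known. Named were the 8 members, up to 4 genes per other pathway list by smallest unadjusted p, a fixed set that includes Ihh, Boc, Cdon and Sufu, and the 5 nearest genes per member. Scube1, Scube3, Csnk1d, and the genes named for sharing the highest libraries of Dhh, were chosen after their values were seen. Some genes of these lists enter the counts and sums but are not reported here by name. Alternatives were other scalings, DESeq2 1.42.0, limma-voom (limma 3.58.1), other filters, a replicate block, leaving out each library, and haemoglobin or myelin level as a covariate. Figures used matplotlib 3.10.9.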

Additional observations from a re-analysis of the deposited data

How the results depend on the processing

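Under 14 other settings and 2 more chosen after seeing the data, none of the 8 Hedgehog genes and none of the other pathway genes was called. DESeq2 gave Dhh no p-value, so Dhh was not tested in that setting. Over all genes, DESeq2 called 11 and every other setting 0. The other scalings (TMM computed without the top 50 genes, upper quartile, RLE), both filters, DESeq2 and limma-voom turned no named fold change round. The median of the ligand release list turned, to 0.06 with limma-voom, 0.04 with the replicate block and 0.47 with the haemoglobin covariate. The median of the receptor list, near 0, ran from -0.14 to 0.12 over all settings. The median log2 fold change of all genes stayed between -0.02 and 0.03.

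The labels do not say whether libraries with the same replicate number were paired. Same-numbered libraries had correlations of deviations of 0.10, -0.72 and 0.06. With 3 libraries per group, these values cannot settle whether the libraries were paired. With the replicate block, Hhip changed direction to 0.22 on the log2 scale, and the log2 fold change of Dhh was 1.14. The block called 0 genes, and no library correlated best with its own number.

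With haemoglobin level as a covariate, direction changed for Smo (0.16), Gli3 (0.20), Hhip (0.18) and Hhat (0.33). In that fit Dhh was at 1.77, Gli1 at 1.71, Shh at 1.57, Ptch1 at 1.08 and Gli2 at 0.54. Unadjusted p was under 0.05 for 1 of the 8 genes, Gli2, for 3 other pathway genes and for 1341 of all 13999 genes, and the edgeR adjusted p of Gli1 was 0.565 and that of Gli2 0.501. With myelin level as a covariate it changed for Shh (-0.042) and Ptch1 (-0.045). The cause was not tested.

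Leaving out 1 library at a time gave log2 fold changes from -2.05 to 2.76 for Shh, -0.26 to 2.06 for Dhh, -0.076 to 1.46 for Ptch1, -0.025 to 1.38 for Gli1 and -1.29 to 1.16 for Hhip. Smo ran from -0.15 to 0.089, Gli3 from -0.39 to 0.015 and Gli2 from 0.13 to 0.47. Of the other genes, Gpc1 ran from -0.29 to 0.95, Igf2 from -0.17 to 0.88, Disp2 from -0.80 to 0.23, Hhat from -0.49 to 0.067, Adam17 from -0.035 to 0.35, Boc from -0.10 to 0.26 and Gpc6 from -0.24 to 0.046. With 3 libraries per group, the spread of the ligands between libraries, and for Shh and Hhip their counts of 7 to 12 in the lowest libraries, limit what can be detected.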
